A study of Mus musculus with 8 samples.

Results

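The genes described here are 10 feedback regulators and transcriptional targets of the canonical Wnt pathway: Axin2, Nkd1, Notum, Apcdd1, Ccn4 (Wisp1), Sp5, Lgr5, Rnf43, Dkk1 and Tcf7. They are 10 of the 23483 genes of the count table. Each was taken as the table row of its RefSeq transcript, and where a gene had several rows the one with the highest total count was used. All 10 were in the table and all 10 passed the filter on low counts that left 13966 genes to test. Lgr5 passed through the 14 and 16 counts of 1 group, since the other 6 libraries held 3 to 6 counts.

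RNA selected for poly(A) tails was sequenced from C57BL/6 mouse cells at 5.5 mM glucose, in 4 groups of 2 libraries, for a study of the methyltransferase Set7 on the way from embryonic stem cells to smooth muscle. The first group held embryonic stem cells kept with the cytokine LIF (mESC). The second held untreated Sca1 cells, made by growing such stem cells on gelatin for 4 days without LIF, sorting them with magnetic beads against the surface protein Sca1 to a purity above 80%, and expanding them without LIF for 2 to 8 population doublings. The third held Sca1 cells transduced with a lentivirus carrying a non-target shRNA (NTC), and the fourth held Sca1 cells transduced with a lentivirus carrying an shRNA against Set7 (knock-down). Both transduced groups were selected with puromycin at 1 µg/ml for a week or longer, which the untreated cells were not. The sort, the growth without LIF and the glucose level were shared by all 3 Sca1 groups. The labels name 1 targeting sequence. They do not say whether the 2 replicates of a group came from separate cultures, so the spread behind each p-value may be technical.

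Canonical Wnt signalling stabilizes beta-catenin, which enters the nucleus and activates genes together with DNA-binding factors of the TCF and LEF family. Several of the activated genes encode inhibitors of the pathway, so that signalling limits itself. Axin2 is a scaffold of the complex that destroys beta-catenin, and Nkd1 binds the signal transducer Dishevelled. Rnf43 is a ubiquitin ligase that removes Frizzled receptors from the cell surface, and Lgr5 is a receptor for R-spondins, which counter that ligase. Notum is a secreted enzyme that strips the lipid from Wnt proteins, Dkk1 is a secreted antagonist of the co-receptor Lrp6, and Apcdd1 is a membrane-bound Wnt inhibitor. Sp5 is a zinc-finger transcription factor, Tcf7 encodes the factor TCF1, and Ccn4 is a secreted matricellular protein. In embryonic stem cells Wnt signals help to maintain self-renewal, and during gastrulation they drive the formation of mesoderm.

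Sequences were used to look for the core CTTTG that TCF and LEF factors bind. RefSeq promoters (GRCm38.p6) were given for 6 of the 10 genes. The 250 bases before each annotated start were searched for CTTTG on both strands (CAAAG on the other strand). Of 32851 RefSeq promoters, 48.6% held it at least once and 0.773% held it 4 or more times. Sp5 and Dkk1 each held 4 matches, and no match lay in the windows of Axin2, Nkd1, Rnf43 and Tcf7. The windows of Axin2 and Sp5 and 1 of 2 for Rnf43 end at the GENCODE vM21 start of the counted transcript. The other window for Rnf43 belongs to a start 36810 bases downstream of it, and that of Nkd1 to a start 6279 bases downstream of it. Those of Tcf7 belong to starts 24 and 443 bases upstream of it. Like that of Axin2, both lie inside the RefSeq span of their gene. Nothing is therefore said about the sequence before the counted Nkd1 transcript or before the first RefSeq start of Tcf7. The longer form CTTTGAT, searched on both strands and containing the core, was in 3.21% of all windows and once in that of Sp5, 104 bases before the start. The windows of Sp5 (chr2:70474673-70474922, plus strand) and Axin2 (chr11:108920099-108920348, plus strand) are shown whole because these genes rose together in untreated Sca1 cells and differ in motif content. For Dkk1 (minus strand of chromosome 19), 30 bases around the matches 173 bases and 122 bases before the start are shown. The counted GENCODE vM21 transcript of Dkk1 starts 169 bases upstream of that RefSeq start. Part of the window, with the matches 122, 117 and 98 bases before the RefSeq start, thus lies in its first exon. Capitals mark the matches.
Sp5: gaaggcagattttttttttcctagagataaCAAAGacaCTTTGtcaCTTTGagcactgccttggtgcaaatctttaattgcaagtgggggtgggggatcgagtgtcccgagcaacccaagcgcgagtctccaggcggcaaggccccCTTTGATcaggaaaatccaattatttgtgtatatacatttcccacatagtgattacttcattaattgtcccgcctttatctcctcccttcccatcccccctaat
Axin2: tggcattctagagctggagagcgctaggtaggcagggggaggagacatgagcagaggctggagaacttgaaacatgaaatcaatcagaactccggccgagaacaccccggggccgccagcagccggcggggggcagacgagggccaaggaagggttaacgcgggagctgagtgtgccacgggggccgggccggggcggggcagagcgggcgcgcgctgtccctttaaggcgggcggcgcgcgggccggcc
Dkk1, 173 bases before the start: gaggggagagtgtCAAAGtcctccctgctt
Dkk1, 122 bases before the start: tcccagctcctccCAAAGCTTTGaaatccc
A match describes letters and not a bound site, and a window without one says only that these letters are not in it.

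Counts summed over genes ranged from 2507938 to 5080266 per library. A ribosomal RNA precursor took 11.5% of the counts of mESC replicate 2 and 12.0% of those of untreated Sca1 replicate 2, against 0.403% to 1.62% in the other 6 libraries. These libraries carry the code 56 in their descriptions, while all 4 groups have a library of code 34 and the transduced groups a library of code 12. Levels are given as CPM, read counts scaled to library size by the TMM method. Setd7, which encodes Set7, was lower in both knock-down libraries (14.0 and 10.8 CPM) than in both NTC libraries (60.7 and 66.6 CPM; log2 -2.39 ± 0.20 SE, edgeR adjusted p = 1.71e-07). In mESC it had 11.2 and 16.5 CPM, and in untreated Sca1 cells 76.3 and 66.3 CPM. Ly6a, which encodes Sca1, was no higher after the sort, at 9.85 and 5.72 CPM in mESC and 13.0 and 4.42 CPM in untreated Sca1 cells (edgeR adjusted p = 0.671).

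Against mESC, 7 of the 10 genes were higher in untreated Sca1 cells and none was lower by edgeR's quasi-likelihood test with Benjamini-Hochberg adjustment at 0.05. Of all tested genes, 18.7% were higher in that comparison and 16.8% lower. With the Set7 shRNA, 5 of the 10 were lower and none higher than with the non-target shRNA, where 10.1% of all tested genes were lower and 4.25% higher. The median log2 change of the 10 was 1.44 in the first comparison and -1.02 in the second, against -0.01 and 0.00 for all tested genes. The second median includes Lgr5 (log2 -1.47), which passed the filter through the NTC libraries of that comparison. These 2 comparisons share no library. Nkd1, Apcdd1 and Ccn4 were called in both, higher and then lower, as were 6.46% of all tested genes. Axin2, Rnf43, Sp5 and Tcf7 were called only as higher in untreated Sca1 cells, Notum and Dkk1 only as lower in the knock-down, and Lgr5 in neither.

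**Figure D1:**
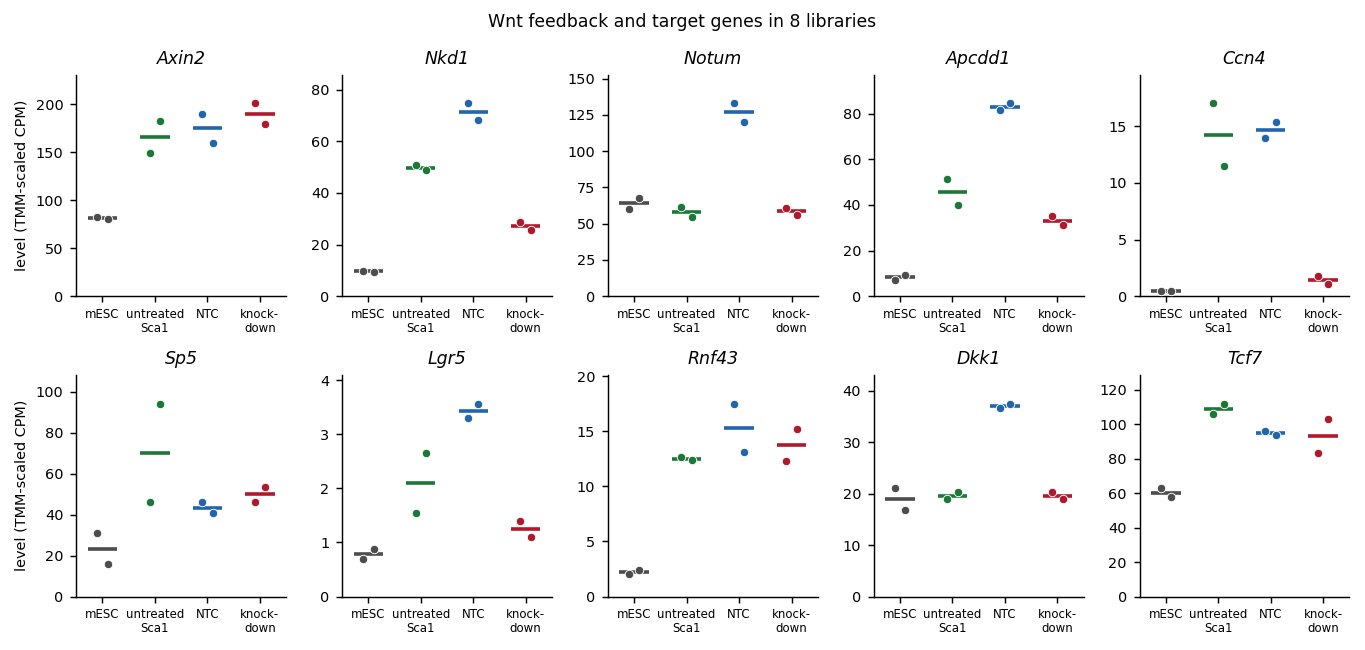
Level of each of the 10 genes in the 8 libraries, in TMM-scaled CPM on a linear axis from 0 whose range differs between panels. Each point is 1 library and each bar the mean of the 2 libraries of a group. Axin2 stands between 149 and 201 CPM in all 6 Sca1 libraries, whereas Nkd1, Notum, Apcdd1, Ccn4 and Dkk1 stand lower in both knock-down libraries than in both NTC libraries.

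Gene positions below are the RefSeq spans of all transcripts of a gene on GRCm38.p6, which can begin before the counted transcript, as for Axin2. Axin2 (NM_015732, chromosome 11, 108917828 to 108950783) is widely used as a readout of the pathway. It stood at 82.9 and 80.8 CPM in mESC, 149 and 182 in untreated Sca1 cells, 190 and 160 in NTC cells and 201 and 179 in knock-down cells. Both mESC libraries lay below all 6 Sca1 libraries, whose groups overlapped. Its level was 2.02-fold higher in untreated Sca1 cells than in mESC (log2 1.01 ± 0.14 SE, edgeR adjusted p = 1.64e-05). No change was detected with the Set7 shRNA (log2 0.11 ± 0.13 SE against NTC, 95% interval -0.16 to 0.39, edgeR adjusted p = 0.632). The interval leaves room for a rise of up to 0.39 or a fall of up to 0.16 on the log2 scale.

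Nkd1 (NM_027280, chromosome 8, 88521342 to 88594887), the Dishevelled-binding inhibitor, behaved differently. It stood at 9.85 and 9.46 CPM in mESC, 50.7 and 49.0 in untreated Sca1 cells, 74.7 and 68.4 in NTC cells and 28.7 and 25.7 in knock-down cells, so that no 2 groups overlapped. Against mESC it was 5.16-fold higher in untreated Sca1 cells (log2 2.37 ± 0.19 SE, edgeR adjusted p = 2.96e-08). It fell by 1.40 ± 0.16 SE on the log2 scale in the knock-down against NTC (edgeR adjusted p = 5.31e-06), and within library codes 34 and 12 the log2 ratios were -1.39 and -1.36. The fall was smaller against untreated Sca1 cells (log2 -0.88 ± 0.17 SE, edgeR adjusted p = 0.00132). A second Nkd1 transcript in the table, with counts close to those of the first, shares most of its reads and was not counted again.

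Rnf43 (NM_172448, chromosome 11, 87663087 to 87735539), the ligase for Frizzled receptors, followed the pattern of Axin2 at a lower level. It stood at 2.06 and 2.42 CPM in mESC, 12.7 and 12.4 in untreated Sca1 cells, 17.5 and 13.2 in NTC cells and 12.3 and 15.2 in knock-down cells. The mESC libraries rest on 9 and 11 counts. The rise against mESC was 5.52-fold (log2 2.47 ± 0.34 SE, edgeR adjusted p = 2.39e-05). Knock-down and NTC libraries overlapped (log2 -0.14 ± 0.24 SE, 95% interval -0.65 to 0.37, edgeR adjusted p = 0.779).

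Lgr5 (NM_010195, chromosome 10, 115450314 to 115587780), the R-spondin receptor, was close to the limit of detection. It stood at 0.687 and 0.880 CPM in mESC, 1.55 and 2.65 in untreated Sca1 cells, 3.31 and 3.57 in NTC cells and 1.40 and 1.10 in knock-down cells. The NTC libraries were the highest of the 8 and no groups overlapped, but the other 3 groups were separated by a few counts. Over both libraries 30 counts in NTC cells stood against 9 in knock-down cells, a ratio of scaled counts of 0.353 (95% counting interval 0.147 to 0.763, counting error only). Since Lgr5 passed the filter through the NTC libraries, no test of this difference is given.

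Notum (NM_175263, chromosome 11, 120653788 to 120661193), the secreted Wnt-inactivating enzyme, was the member with the highest level per kilobase in mESC. It stood at 60.4 and 67.6 CPM in mESC, 61.8 and 54.8 in untreated Sca1 cells, 133 and 120 in NTC cells and 60.9 and 55.8 in knock-down cells. NTC cells thus stood apart, and the other 3 groups lay between 54.8 and 67.6 CPM. Against NTC the knock-down was lower by 1.12 ± 0.13 SE on the log2 scale (edgeR log2 -1.12, adjusted p = 1.06e-05). Against untreated Sca1 cells it was not (log2 -0.01 ± 0.15 SE, 95% interval -0.31 to 0.30, edgeR adjusted p = 0.975).

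Dkk1 (NM_010051, chromosome 19, 30545876 to 30549496), the secreted Lrp6 antagonist, likewise stood apart in NTC cells. It stood at 21.1 and 16.7 CPM in mESC, 18.9 and 20.3 in untreated Sca1 cells, 36.6 and 37.4 in NTC cells and 20.3 and 18.9 in knock-down cells. Only the NTC libraries stood above 21.1 CPM. The knock-down was lower than NTC (log2 -0.92 ± 0.18 SE, edgeR adjusted p = 0.00216) and did not differ detectably from untreated Sca1 cells (log2 0.00 ± 0.21 SE, 95% interval -0.44 to 0.44, edgeR adjusted p = 0.998). The call against NTC was lost without knock-down replicate 2 (edgeR adjusted p = 0.0739) and when a change beyond 1.5-fold was required (adjusted p = 0.189).

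Apcdd1 (NM_133237, chromosome 18), the membrane-bound inhibitor, combined both features. It stood at 7.33 and 9.46 CPM in mESC, 51.3 and 39.8 in untreated Sca1 cells, 81.5 and 84.5 in NTC cells and 35.02 and 31.2 in knock-down cells, with no overlap between groups. It was 5.45-fold higher in untreated Sca1 cells than in mESC (log2 2.45 ± 0.21 SE, edgeR adjusted p = 7.17e-08) and fell by 1.33 ± 0.17 SE on the log2 scale in the knock-down against NTC (edgeR adjusted p = 1.77e-05). Against untreated Sca1 cells the knock-down was lower by a difference that did not pass (log2 -0.48 ± 0.18 SE, edgeR adjusted p = 0.0732).

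Ccn4 (NM_018865, chromosome 15, 66891369 to 66923201), the matricellular target, had the largest changes of the 10. It stood at 0.458 and 0.440 CPM in mESC, on 2 counts each, at 17.0 and 11.5 in untreated Sca1 cells, at 13.9 and 15.4 in NTC cells and at 1.75 and 1.10 in knock-down cells, on 5 counts each. Untreated and NTC cells overlapped, and knock-down cells stood near mESC. The ratio of scaled counts between untreated Sca1 cells and mESC was 32.8 (95% counting interval 12.3 to 123; log2 4.92 ± 0.47 SE, edgeR adjusted p = 3.15e-07). Between knock-down and NTC it was 0.0920 (interval 0.0431 to 0.175; log2 -3.40 ± 0.39 SE, edgeR adjusted p = 6.59e-06). With untreated Sca1 cells as control the log2 difference was -3.39 ± 0.40 SE (edgeR adjusted p = 1.58e-05). Among tested genes with a mean of at least 10 CPM, the 425 of chromosome 15 had a median log2 change of 0.41 in the knock-down against NTC. The fall of Ccn4 thus ran against the median of its chromosome. The chromosomes of the other 9 genes had medians between -0.06 and 0.04 in that comparison. For chromosome 15 the median was 0.48 in the knock-down against mESC and 0.36 against untreated Sca1 cells. It was -0.05 in NTC against untreated Sca1 cells.

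Sp5 (NM_022435, chromosome 2, 70474923 to 70477726), a transcription factor, varied most between replicates. It stood at 30.9 and 15.8 CPM in mESC, 46.0 and 94.1 in untreated Sca1 cells, 46.1 and 40.8 in NTC cells and 46.2 and 53.4 in knock-down cells. Both mESC libraries lay below the other 6, and the highest value was that of untreated Sca1 replicate 2, a library rich in ribosomal precursor. The rise against mESC was called (log2 1.56 ± 0.37 SE, edgeR adjusted p = 0.0109), with log2 ratios of 0.57 within library code 34 and 2.53 within code 56. It was lost without mESC replicate 2 (edgeR adjusted p = 0.112) and in a fit with a replicate block (adjusted p = 0.163). No change was detected between knock-down and NTC (log2 0.21 ± 0.35 SE, 95% interval -0.59 to 1.00, edgeR adjusted p = 0.775).

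Tcf7 (NM_009331, chromosome 11, 52246527 to 52283383), which encodes TCF1, rose least among the 7. It stood at 63.2 and 57.4 CPM in mESC, 106 and 112 in untreated Sca1 cells, 96.2 and 93.8 in NTC cells and 83.4 and 103 in knock-down cells. Both mESC libraries lay below the 6 Sca1 libraries (log2 0.85 ± 0.14 SE for untreated Sca1 cells, edgeR adjusted p = 0.000104). The NTC libraries lay between those of the knock-down (log2 -0.02 ± 0.13 SE, 95% interval -0.29 to 0.26, edgeR adjusted p = 0.951).

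**Figure D2:**
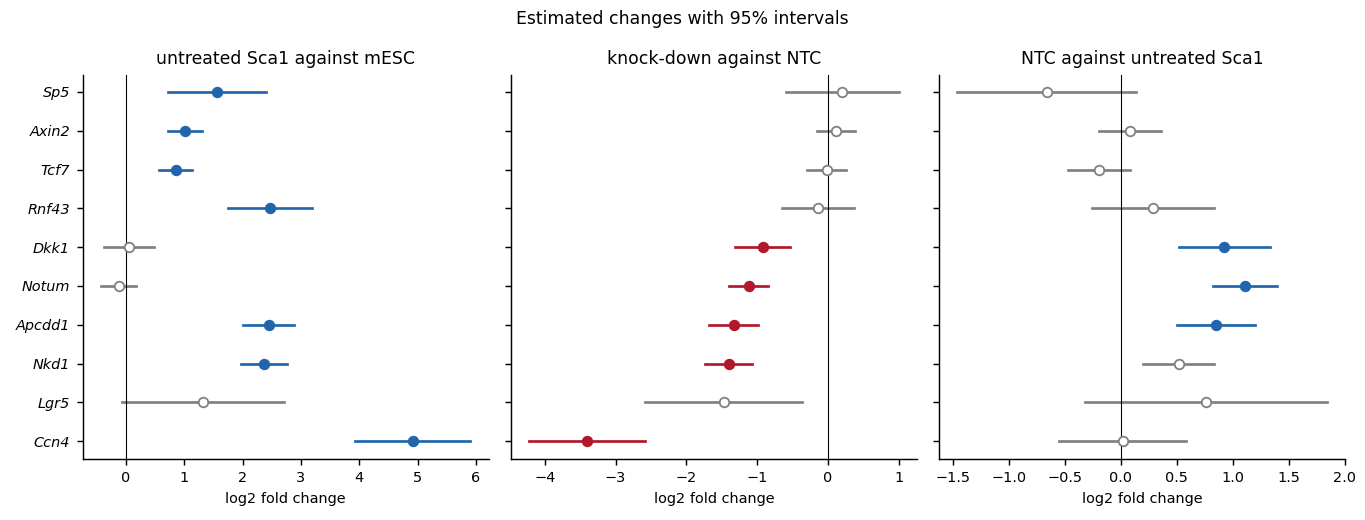
Log2 fold changes of the 10 genes from edgeR in 3 comparisons, as points with 95% intervals, on axes whose range differs between panels. Filled points have an adjusted p under 0.05, blue for higher and red for lower, and open points do not pass. Lgr5 passed the filter through the NTC libraries, so its points in the middle and right panels are not read as tests. Ccn4 has the largest change in the left and middle panels (4.92 and -3.40), and Notum, Dkk1 and Apcdd1 are the filled points in the right panel.

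The comparison of NTC with untreated Sca1 cells asks what the control construct and the selection changed. Its groups also differ in library codes, 12 and 34 in NTC cells and 34 and 56 in untreated Sca1 cells. Construct, selection and code cannot be fully told apart. Notum was higher in NTC cells by 1.11 ± 0.14 SE on the log2 scale (edgeR adjusted p = 0.000169), Dkk1 by 0.92 ± 0.19 SE (adjusted p = 0.0107) and Apcdd1 by 0.85 ± 0.16 SE (adjusted p = 0.00629). These were 3 of 10, and none was lower, where 3.88% of all tested genes were higher and 1.11% lower. Nkd1 was 0.52 ± 0.15 SE higher and did not pass (edgeR adjusted p = 0.0562), but it passed in 6 of 19 alternatives (adjusted p down to 0.0119). Sp5, with 46.1 and 40.8 CPM in NTC and 46.0 and 94.1 in untreated Sca1 cells, gave log2 -0.66 ± 0.35 SE (edgeR adjusted p = 0.336). It was called lower without untreated Sca1 replicate 1 (edgeR adjusted p = 0.0323) and without a filter on low counts (edgeR adjusted p = 0.00681). Within library code 34, which has a library of each group, the log2 ratios were 0.96 for Notum, 0.97 for Dkk1, 0.71 for Apcdd1 and 0.43 for Nkd1. The calls of Dkk1 and Apcdd1 were lost without either NTC replicate (edgeR adjusted p of 0.121 and 0.123 for Dkk1, 0.0936 and 0.101 for Apcdd1). Dkk1 also lost its call without untreated Sca1 replicate 1 (edgeR adjusted p = 0.0659) and Apcdd1 without replicate 2 (adjusted p = 0.0559). This comparison shares the NTC libraries with that of the knock-down against NTC. The choice of control therefore decides part of the count: with untreated Sca1 cells as control only Nkd1 and Ccn4 of the 10 were lower in the knock-down and none was higher, where 9.89% of all tested genes were lower and 7.34% higher.

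Against mESC, knock-down cells were higher in 5 of the 10 genes and lower in none, where 13.5% of all tested genes were higher and 12.4% lower. Rnf43 was higher by 2.61 ± 0.33 SE on the log2 scale (edgeR adjusted p = 1.30e-05), Apcdd1 by 1.97 ± 0.21 SE (adjusted p = 2.24e-06), Nkd1 by 1.48 ± 0.19 SE (adjusted p = 2.00e-05), Axin2 by 1.21 ± 0.13 SE (adjusted p = 3.38e-06) and Tcf7 by 0.64 ± 0.14 SE (adjusted p = 0.00186). Tcf7 lost its call without knock-down replicate 2 (edgeR adjusted p = 0.0891). Ccn4, with 10 counts against 4, gave a ratio of 3.01 (95% counting interval 0.868 to 13.1, edgeR adjusted p = 0.135). Sp5 did not pass either (log2 1.10 ± 0.37 SE, edgeR adjusted p = 0.0594), but it passed in 8 of 19 alternatives, with log2 values of 0.70 to 1.66 over all 19. Notum and Dkk1 differed from mESC by -0.14 ± 0.14 SE and 0.05 ± 0.20 SE (edgeR adjusted p of 0.508 and 0.890). These values share the mESC libraries with the comparison of untreated Sca1 cells.

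Compared per kilobase of transcript, the order of the genes also differed between groups. In mESC the mean levels per kilobase were 31.8 for Notum, 24.4 for Tcf7 and 19.2 for Axin2, and the lowest were 0.166 for Lgr5 and 0.0881 for Ccn4. In NTC cells Notum again led, at 62.9 ± 4.38 CPM per kilobase (SD, n = 2), ahead of Apcdd1 at 44.0 ± 1.10, Axin2 at 41.2 ± 5.02 and Tcf7 at 38.5 ± 0.673. The SDs of Apcdd1 and Axin2 overlapped, as did those of Axin2 and Tcf7. In knock-down cells Axin2 led at 44.6 ± 3.63 CPM per kilobase, ahead of Tcf7 at 37.7 ± 5.65, and their SDs overlapped. Notum followed there at 29.0 ± 1.80, Sp5 at 23.7 ± 2.42, Apcdd1 at 17.5 ± 1.43 and Nkd1 at 8.97 ± 0.699.

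A ratio of 2 genes within 1 library does not depend on how libraries were scaled. Per 100 Axin2 counts, Nkd1 had 11.9 and 11.7 counts in mESC, 33.95 and 26.9 in untreated Sca1 cells, 39.2 and 42.7 in NTC cells and 14.3 and 14.4 in knock-down cells. The knock-down libraries lay between those of mESC and those of both other Sca1 groups. Apcdd1 gave 8.84 and 11.7 in mESC, 34.4 and 21.8 in untreated Sca1 cells, 42.8 and 52.7 in NTC cells and 17.4 and 17.4 in knock-down cells, the same order. For Notum the ratio was 72.9 and 83.7 in mESC, 41.4 and 30.02 in untreated Sca1 cells, 69.7 and 75.1 in NTC cells and 30.3 and 31.2 in knock-down cells. Relative to Axin2, Notum was thus low in untreated and knock-down cells alike. Dkk1 per 100 Axin2 counts was 25.4 and 20.7 in mESC, 12.6 and 11.1 in untreated Sca1 cells, 19.2 and 23.4 in NTC cells and 10.1 and 10.6 in knock-down cells. Ccn4 gave 0.552 and 0.545 in mESC, 11.4 and 6.30 in untreated Sca1 cells, 7.32 and 9.60 in NTC cells and 0.871 and 0.613 in knock-down cells.

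**Figure D3:**
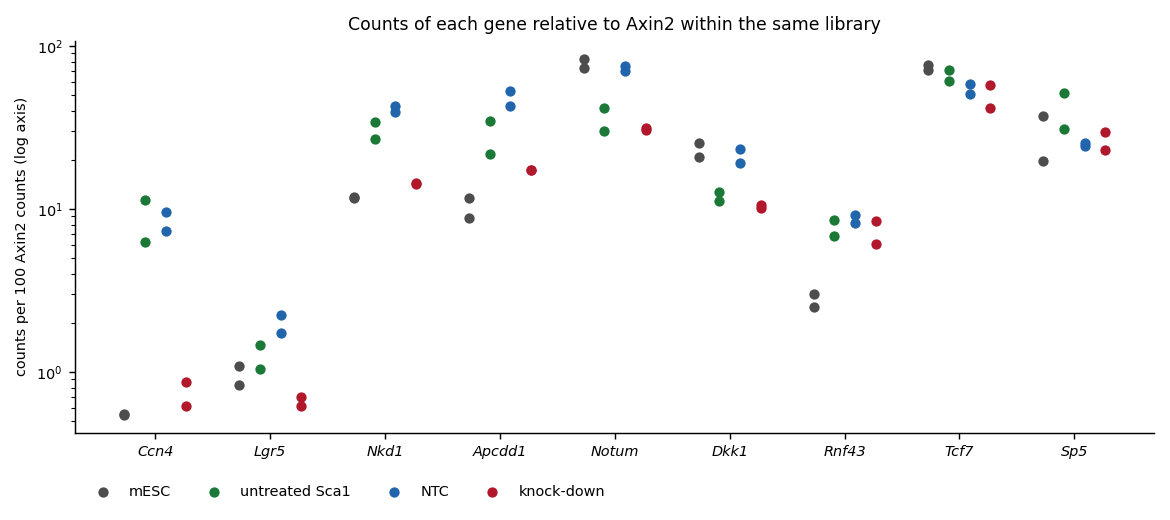
Counts of 9 of the genes per 100 Axin2 counts of the same library, on a log axis, with 1 point per library coloured by group. For Nkd1, Notum, Apcdd1, Ccn4 and Dkk1 the 2 knock-down points lie below the 2 NTC points, and for Ccn4 the knock-down points (0.871 and 0.613) lie just above those of mESC.

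Across the 8 libraries the log2 levels of the 10 genes gave 45 pairwise Pearson correlations between -0.13 and 0.98, with a median of 0.71. These describe 4 groups of 2 libraries that share library codes and depth, and they carry no test. The highest was that of Nkd1 with Apcdd1 (0.98). Axin2 with Rnf43 gave 0.96 and Notum with Dkk1 gave 0.93. The lowest was that of Notum with Sp5 (-0.13). Among tested genes with a mean of at least 10 CPM, the 3 whose log2 level was most like Axin2 over the 8 libraries were Cldn3, Cgn and Radil (r of 1.00, 0.99 and 0.99). Those nearest to Nkd1 were Rab34, Hoxaas3 and Flnc (1.00 each), and those nearest to Apcdd1 were Hoxa3, Hoxd4 and Tnfrsf12a (1.00, 0.99 and 0.99). For Ccn4 they were Prkra, Timp2 and Mprip, and for Rnf43 Scmh1, Car4 and Cldn6 (all between 0.99 and 1.00). Notum had less close neighbours, Myl6, Igf2r and Tmem179b (0.97, 0.96 and 0.96). Those of Dkk1 were Vps9d1, Slc12a4 and Chpf (0.98, 0.98 and 0.96), and those of Sp5 Ybx3, Mpp5 and Fnta (0.98, 0.98 and 0.97). All these neighbours were picked as the highest of 10412 or 10413 candidate genes. High values therefore follow from the choice, and shared regulation was not tested.

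The other genes of the pathway were described by lists of their roles. Their counts stand against 18.7% of all tested genes higher and 16.8% lower in untreated Sca1 cells, and 4.25% higher and 10.1% lower in the knock-down against NTC. The counts of cytoplasmic and nuclear components below lie near several of these shares. With 1 library left out, the falls over all tested genes in the knock-down against NTC also moved, from 537 of 14403 to 1793 of 14358. With untreated Sca1 cells as control for the knock-down, 2 ligand genes rose and 2 fell, 1 gene of the R-spondin axis rose and 1 fell, and no gene of the other lists rose. The falls then numbered 3 receptors, 5 extracellular inhibitors, 3 cytoplasmic components, 4 nuclear components and 10 other targets. With that control 7.34% of all tested genes were higher and 9.89% lower. The 2 ligand falls and the 3 cytoplasmic falls lie near the latter share. Of 14 tested genes for Wnt ligands and their secretion, 11 rose and 1 fell from mESC to untreated Sca1 cells. In the knock-down against NTC none rose and 6 fell, and that number was 3 to 6 with 1 library left out. Wls, which carries Wnt proteins to the cell surface, stood at 6.73 ± 0.447 CPM in mESC (SD, n = 2 in this and the next values), 129 ± 15.5 in untreated Sca1 cells, 182 ± 0.726 in NTC cells and 37.8 ± 0.0123 in knock-down cells. It rose by 4.24 ± 0.17 SE on the log2 scale and fell by 2.27 ± 0.13 SE (edgeR adjusted p of 6.52e-12 and 2.02e-09). Wnt5a, a mostly non-canonical ligand, rose by 5.68 ± 0.36 SE and fell by 1.93 ± 0.20 SE (adjusted p of 2.45e-09 and 2.03e-06). Wnt8a, a ligand of early mesoderm, rose by 3.81 ± 0.29 SE (edgeR adjusted p = 3.21e-08), and Wnt4 fell by 2.17 ± 0.32 SE in the knock-down (adjusted p = 0.000118).

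Of 16 receptors and co-receptors, 9 rose and 1 fell in untreated Sca1 cells, and none rose and 6 fell in the knock-down (3 to 9 fell with 1 library left out). Fzd2 rose by 4.09 ± 0.20 SE and fell by 1.61 ± 0.14 SE, and Fzd1 rose by 3.93 ± 0.43 SE and fell by 3.56 ± 0.32 SE, to 1.86 ± 0.161 CPM (edgeR adjusted p of 7.21e-11, 2.91e-07, 1.59e-06 and 3.84e-07). Fzd5 was the receptor lower in untreated Sca1 cells (log2 -2.11 ± 0.15 SE, edgeR adjusted p = 1.15e-08), and Ptk7, a co-receptor of planar polarity signalling, fell by 0.83 ± 0.14 SE in the knock-down against NTC (adjusted p = 0.000391). In the R-spondin axis 1 of 5 tested genes rose and 1 fell in untreated Sca1 cells, and 1 fell in the knock-down (0 to 2 with 1 library left out). Rspo3, an R-spondin, went from 2 counts in mESC to 50 in untreated Sca1 cells (ratio 40.5, 95% counting interval 10.6 to 344) and fell by 1.81 ± 0.36 SE in the knock-down (edgeR adjusted p = 0.00215), a call lost without knock-down replicate 2 (adjusted p = 0.0903). The R-spondin receptor Lgr4 was lower in untreated Sca1 cells (log2 -0.59 ± 0.14 SE, edgeR adjusted p = 0.00408), a call lost without their replicate 1 (adjusted p = 0.0639).

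Of 14 tested extracellular inhibitors other than the members, 8 rose and 2 fell in untreated Sca1 cells, and 1 rose and 8 fell in the knock-down (4 to 9 fell with 1 library left out). Sfrp4 was 1 of the 2 falls in untreated Sca1 cells, from 4.35 ± 1.94 CPM in mESC to 1.26 ± 1.34 (SD, n = 2). It stood at 1.36 ± 0.592 CPM in NTC cells and 1.84 ± 1.12 in knock-down cells. Since Sfrp4 passed the filter through the mESC libraries, where it was highest, its call is not read as a test. The glypicans Gpc3 and Gpc4 are counted in this list and among its 8 falls. Whether they inhibit Wnt signalling in these cells was not tested. Gpc3 rose by 1.07 ± 0.12 SE and fell by 2.41 ± 0.12 SE (edgeR adjusted p of 2.17e-06 and 2.97e-10). Gpc4 fell by 1.28 ± 0.14 SE in the knock-down (edgeR adjusted p = 3.69e-06). Dkk2, a relative of Dkk1, had no count in mESC and was at least 21.6-fold higher in untreated Sca1 cells (against a floor of 3 counts over the group), and it fell by 4.07 ± 0.51 SE in the knock-down (edgeR adjusted p = 2.52e-05). Dkk4 rose by 3.44 ± 0.42 SE in untreated Sca1 cells (edgeR adjusted p = 5.92e-06). Of 21 cytoplasmic components, 4 rose and none fell in untreated Sca1 cells, and 1 rose and 3 fell in the knock-down (2 or 3 fell with 1 library left out). The Dishevelled partners Dact1 and Dact3 rose by 2.25 ± 0.25 SE and 1.81 ± 0.30 SE and fell by 1.25 ± 0.21 SE and 1.68 ± 0.30 SE, and Nkd2, the relative of Nkd1, rose by 1.96 ± 0.48 SE (edgeR adjusted p of 1.51e-06, 0.000127, 0.000381, 0.000709 and 0.0038). Amer1, which binds APC, fell by 0.60 ± 0.16 SE (edgeR adjusted p = 0.0179), a call lost without any 1 of the NTC or knock-down replicates (adjusted p from 0.0578 to 0.236).

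Of 16 nuclear components, 5 rose and 2 fell in untreated Sca1 cells, and none rose and 2 fell in the knock-down (0 to 5 fell with 1 library left out). Lef1, the relative of Tcf7, rose by 1.55 ± 0.22 SE and fell by 0.69 ± 0.19 SE, and the co-repressor Ctbp1 rose by 0.94 ± 0.14 SE and fell by 0.48 ± 0.14 SE (edgeR adjusted p of 2.23e-05, 0.022, 6.81e-05 and 0.028). Both falls were lost by DESeq2 (adjusted p of 0.0620 and 0.0564). That of Lef1 was lost without NTC replicate 1 or either knock-down replicate (edgeR adjusted p from 0.115 to 0.360), and that of Ctbp1 without any 1 of the 4 libraries (adjusted p from 0.109 to 0.305). Bcl9, a beta-catenin cofactor, rose by 1.04 ± 0.16 SE (edgeR adjusted p = 4.99e-05). Of 21 other Wnt targets, 19 rose and none fell in untreated Sca1 cells, and 1 rose and 11 fell in the knock-down (6 to 14 fell with 1 library left out). The caudal factor Cdx2 rose by 3.48 ± 0.18 SE, the inhibitor of differentiation Id2 by 3.60 ± 0.25 SE and the homeobox factor Msx1 by 3.98 ± 0.32 SE (edgeR adjusted p of 2.27e-10, 6.60e-09 and 3.48e-08). In the knock-down Id2 fell by 1.99 ± 0.21 SE, the hyaluronan receptor Cd44 by 2.35 ± 0.26 SE and the mesenchymal factor Twist1 by 2.80 ± 0.34 SE (edgeR adjusted p of 1.90e-06, 5.33e-06 and 1.30e-05). The fewest falls were counted without an NTC or knock-down library (for extracellular inhibitors and other targets without knock-down replicate 2), and the 9 receptors, 9 extracellular inhibitors, 5 nuclear components and 14 other targets without either mESC library. The list medians in the knock-down against NTC were -0.95 for ligands, -0.49 for receptors, 0.06 for the R-spondin axis, -1.23 for extracellular inhibitors, -0.03 for cytoplasmic components, -0.15 for nuclear components and -1.17 for other targets, against 0.00 for all tested genes.

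**Figure D4:**
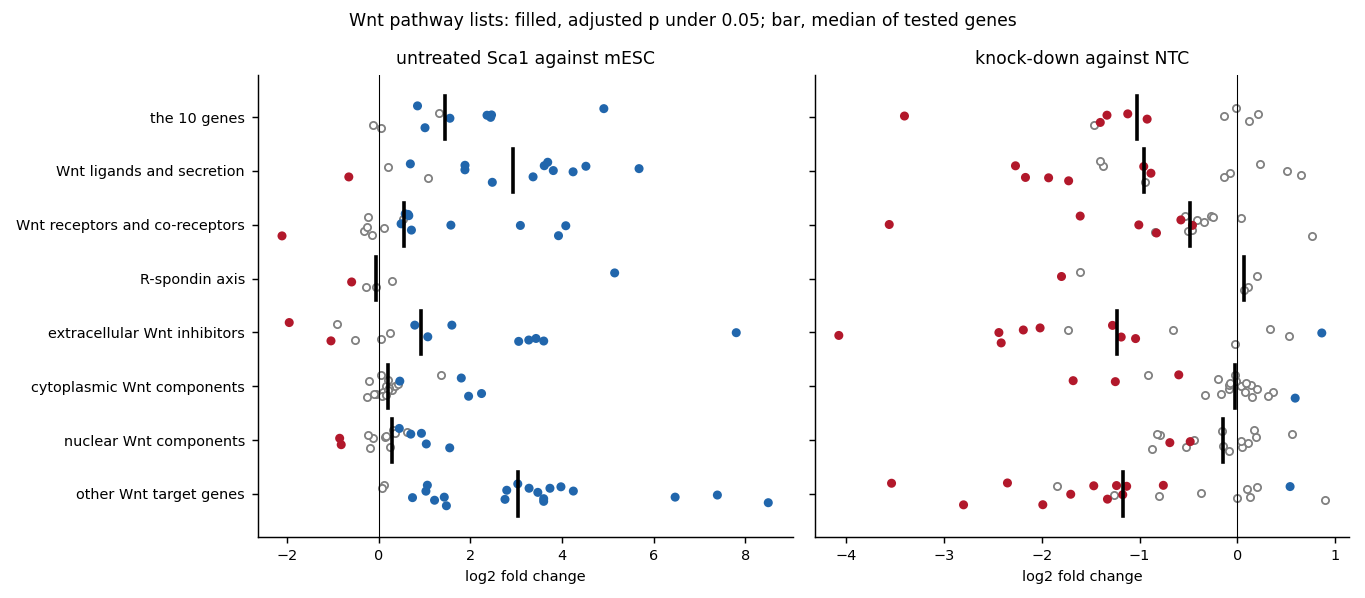
Log2 fold changes of the tested genes of each list for untreated Sca1 cells against mESC (left) and the knock-down against NTC (right). Each point is 1 gene, filled where the edgeR adjusted p is under 0.05, and each bar is the list's median. In the right panel the medians of the 10 genes (-1.02, with Lgr5 included), extracellular inhibitors (-1.23) and other targets (-1.17) lie left of 0. That of cytoplasmic components (-0.03) lies on it.

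In bulk RNA, fewer cells of a type and less RNA per cell cannot be told apart, and markers of other cell types moved with the results. The summed level of 7 fibroblast or feeder markers was 22.4 to 27.5 CPM in mESC, where Dcn and Lum were at 0, 747 to 820 in untreated Sca1 cells, 1778 to 1850 in NTC cells and 83.7 to 94.9 in knock-down cells. The fibrillar collagen gene Col3a1 in this list stood at 656 and 659 CPM in NTC cells and at 6.30 and 7.03 in knock-down cells. The sum of 6 smooth muscle markers was 38.5 to 47.4 CPM in mESC, 580 to 935 in untreated Sca1 cells, 574 to 600 in NTC cells and 162 to 170 in knock-down cells, with none at 0 in any group. The sum of 5 neural markers was 62.7 to 66.9, 214 to 224, 212 to 247 and 106 to 112 CPM in the same order. Most of it was Nes, at 193 and 163 CPM in NTC cells and 42.7 and 35.6 in knock-down cells. Tubb3 went the other way, at 44.0 and 42.1 against 63.0 and 60.4 CPM. The sum of 6 pluripotency markers was 2809 to 3052 CPM in mESC, 1708 to 1933 in untreated Sca1 cells, 1704 to 1759 in NTC cells and 2198 to 2232 in knock-down cells. Sox2, Zfp42, Esrrb and Tdgf1 were lower in both untreated Sca1 libraries than in both mESC libraries. Nanog and Pou5f1 overlapped between these groups, Nanog at 193 and 196 against 207 and 166 CPM and Pou5f1 at 844 and 575 against 625 and 674. Nanog had 246 and 253 CPM in knock-down cells, above mESC. The sum of 6 tail bud and presomitic markers was 207 to 211 CPM in knock-down cells and 204 to 211 in NTC cells, mostly from T and Cdx2, and 52.4 to 63.9 CPM in mESC, with Msgn1 and Hes7 at 0. The presomitic markers at low level were lower in both knock-down libraries than in both NTC libraries. Tbx6 had 2.10 and 1.76 against 5.20 and 4.01 CPM, Hes7 1.05 and 0.440 against 3.78 and 3.12, and Msgn1 3.15 and 0.659 against 5.44 and 5.57 (edgeR adjusted p = 0.0423 for Msgn1). The call for Msgn1 rests on low levels and was not followed through the alternatives, and no test is given for Tbx6 or Hes7. The sum of the visceral endoderm markers was 547 to 643 CPM in mESC, with Apoa1 at 0, 129 to 152 in untreated Sca1 cells, 365 to 375 in NTC cells and 412 to 479 in knock-down cells. Most of it was Cubn, at 312 and 328 CPM in NTC cells and 347 and 412 in knock-down cells. Amn went the same way, at 21.7 and 17.6 against 43.8 and 44.8 CPM. Sox17 went the other way, at 20.1 and 19.8 against 16.8 and 13.2 CPM. Foxa2 overlapped between these groups, and Afp and Ttr did not exceed 0.945 CPM in any library. Endothelial markers, mostly Pecam1, summed to 169 to 185 CPM in mESC and 51.2 to 52.2 in untreated Sca1 cells. They summed to 93.1 to 98.5 in NTC cells and 99.5 to 115 in knock-down cells, with Emcn at 0 in mESC and knock-down cells. Blood markers, mostly Runx1, summed to between 17.5 and 50.4 CPM in all 8 libraries. Hbb-bt was at 0 in every group and Ptprc and Hba-a1 at 0 in all but the knock-down. The part of these markers in the changes of the Wnt genes was not tested.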

How the data were processed

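Poly(A) RNA of 4 groups of 2 libraries was measured. What the authors deposited is a table of raw read counts, 1 row per RefSeq transcript. Its values are whole numbers and no scaling was seen in them. Without roles, BWA 0.5.9, SAMtools 0.1.17 and edgeR 0.19 appear in the submitters' processing notes. Build, counter, annotation release and strand were not given in the sources used here, so reads of overlapping or antisense genes cannot be told apart.

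Of 29614 transcripts, 28981 were named from a RefSeq gene table (GRCm38.p6) and 177 from GENCODE vM21, and 456 kept their accession. The row with the highest total stood for each gene. Genes were filtered with filterByExpr and scaled by TMM. All libraries entered the same edgeR 4.0.16 fit (R 4.3.3), with the 4 group means as its terms and 4 residual degrees of freedom. Contrasts were tested by robust quasi-likelihood F tests, adjusted by Benjamini-Hochberg over 13966 genes and called at 0.05. Each SE was computed as the log2 change divided by the root of F. The fit pools a spread that differed between groups. Averaged over genes, replicate counts varied 57.6 times as much as counting noise for mESC and 43.5 times for untreated Sca1 cells (chi-square per degree of freedom). For NTC and knock-down cells the averages were 1.55 and 2.10 times. All these averages include the ribosomal precursor, which had 31112 and 585688 counts in the mESC libraries. The untreated Sca1 libraries held 14316 and 301047 counts of it. This single row carries much but not all of the 57.6 and 43.5, which therefore do not describe a typical gene. What remains is still larger than the averages for NTC and knock-down cells. Averages without the row are not given. The same steps were run on counts simulated with set fold changes and a spread that did not differ between groups. That run therefore cannot show how the tests behave under the unequal spread of these groups, and its outcome is not reported here.

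The 10 genes, the pathway and marker lists and the tests were chosen with earlier results of these data known. In each pathway list, up to 3 called genes with the smallest p were named for untreated Sca1 against mESC and for the knock-down against NTC. For each of the 10, the 3 genes with a mean of at least 10 CPM and the highest Pearson correlation of log2 CPM (prior count 2) were named, except that those of Lgr5 and Tcf7 are not reported here. Alternatives were RLE factors, library totals, DESeq2 1.42.0, other filters, a fit of the compared groups, a replicate block, a 1.5-fold threshold, summed transcripts, each library left out and another control. Levels per kilobase used GENCODE vM21 transcript lengths.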

Additional observations from a re-analysis of the deposited data

How the results depend on the processing

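Of the 7 rises in untreated Sca1 cells against mESC, those of Axin2, Nkd1, Apcdd1, Ccn4 and Rnf43 passed under every alternative run. That of Tcf7 was lost at the 1.5-fold threshold (edgeR adjusted p = 0.0589), and that of Sp5 as given with its values. The falls of Nkd1 and Ccn4 in the knock-down passed under every alternative, and those of Notum and Apcdd1 under all but untreated Sca1 cells as control. That control left 2 of the 10 lower and gave log2 values of -0.45 for Sp5, 0.15 for Rnf43 and 0.0010 for Dkk1. Of the pathway genes named for the knock-down, Wnt4, Ptk7, Lef1 and Amer1 lost their call with it (adjusted p of 0.0743, 0.431, 0.0968 and 0.363).

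Called genes numbered 4964 in untreated Sca1 cells against mESC, 1998 in the knock-down against NTC, 697 in NTC against untreated Sca1 cells and 3615 in the knock-down against mESC. The 1.5-fold threshold left 2041, 597, 15 and 1263, with 0 of the 10 genes for NTC against untreated Sca1 cells. DESeq2 called 1275 in the knock-down against NTC, and a fit of the compared groups 4416. Without a filter NTC against untreated Sca1 cells had 1148 calls, 5 of them among the 10. Leaving out 1 library gave 648 (without knock-down replicate 2) to 2826 in the knock-down against NTC. It gave 57 (without NTC replicate 1) to 1517 in NTC against untreated Sca1 cells, with 1 to 4 of the 10, and 1844 to 4271 in the knock-down against mESC. Without the libraries of code 56, chosen after seeing the data and leaving 1 library each of mESC and untreated Sca1 cells, 4462 genes were called in the knock-down against NTC and 2386 in NTC against untreated Sca1 cells. Leaving out the ribosomal precursor, also chosen after seeing the data, changed no call of the 10. With library totals the share of calls that were higher went from 29.7% to 18.3% in the knock-down against NTC, from 77.8% to 96.5% in NTC against untreated Sca1 cells, where the median of all genes shifted to 0.10, and from 52.1% to 64.0% in the knock-down against mESC. No direction of the 10 changed under that scaling or under RLE factors.

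Apart from Dkk1 with untreated Sca1 cells as control, sign changes were seen among values that did not pass. Leaving out 1 library gave log2 values from -0.11 to 0.22 for Dkk1 in untreated Sca1 cells and in the knock-down, both against mESC. In the knock-down against NTC it gave -0.0058 to 0.24 for Axin2, -0.34 to 0.075 for Rnf43 and -0.19 to 0.12 for Tcf7. In NTC against untreated Sca1 cells it gave -0.055 to 0.23 for Axin2 and -0.21 to 0.36 for Ccn4. Ccn4 there was -0.00848 in a fit of the compared groups and -0.22 without code 56. Without code 56, Notum in untreated Sca1 cells was 0.046 against mESC, and Dkk1 was -0.15 there and -0.11 in the knock-down against mESC. The causes of these changes were not tested.

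The replicate numbers of the descriptions gave a correlation of replicate differences of 0.33 between mESC and untreated Sca1 cells and 0.18 between NTC and knock-down cells, with 2 pairs each, and the labels do not say that a number marks a shared culture or day. With the replicate block 5786, 2826, 1261 and 3269 genes were called in the 4 comparisons, and Sp5 was the one gene of the 10 to lose a call. Under the block Ccn4 in NTC against untreated Sca1 cells was -0.17 and Dkk1 in the knock-down against mESC was -0.032. Depth limits Lgr5 and the mESC level of Ccn4, which rest on 3 to 16 and on 2 counts per library.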
